A study of Mus musculus with 12 samples.

Results

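Microglia-enriched cell isolates of the cerebral cortex of App NL-G-F mice were compared after rh Bri2 BRICHOS R221E and after veh (3 and 3 mice), so that 6 of the 12 RNA-sequencing libraries of the series enter the comparison. Libraries were chosen by genotype and treatment as labelled, and the other 6, from WT mice given the same treatments, served for the estimate of the spread and for the test of whether the treatment effect differed between genotypes. App NL-G-F mice carry a knock-in at the mouse App locus with a humanized amyloid-beta sequence and the Swedish, Iberian and Arctic mutations, so that no foreign promoter drives the gene. All mice were males that received PBS (veh) or rh Bri2 BRICHOS R221E at 10 mg/kg into a vein, 24 times over 12 weeks from the age of 9 months, and tissue was taken 4 weeks after the treatment ended. The cells were bound to beads with anti-CD11b antibodies after papain digestion and were not further sorted, and each library is 1 mouse.

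Bri2 is a membrane protein encoded by Itm2b, and its BRICHOS domain acts as a molecular chaperone that delays amyloid-beta aggregation. The R221E variant is a form of the recombinant human domain that stays monomeric. Microglia are the resident macrophages of the brain. Near amyloid plaques they reduce homeostatic genes such as P2ry12 and Tmem119 and induce a disease-associated program that holds Apoe, Trem2, Cst7 and Spp1. Astrocytes clear glutamate and raise Gfap when reactive, while endothelial cells, pericytes and smooth muscle cells form the vessel wall and its basement membrane. A preparation of CD11b-positive cells can carry transcripts of all of these.

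The App NL-G-F libraries held 14461294 to 17889654 counts on genes, and 3 counts corresponded to 0.168 to 0.207 counts per 1000000 before scaling (CPM). All CPM values below are after TMM scaling of the library totals (a correction for composition). The 16 homeostatic microglial markers were all tested, with a summed level of 31370 to 35380 CPM over the 6 libraries, and Itgam, which encodes CD11b, was at 409 to 472 CPM. Other cell types were present as well. Astrocyte markers stood apart in the veh-treated mice 1 and 2, with a summed level of 7585 and 6739 CPM over 26 genes, against 2476 CPM in the veh-treated mouse 3 and 1033 to 1300 CPM in WT mice given veh. Choroid plexus markers were highest in the veh-treated mouse 3, at 2058 CPM over 11 genes, against 664 to 1099 CPM in the other 5 App NL-G-F libraries. Values without the veh-treated mice 1 and 2 are therefore given beside the results that rest on them. In that fit the remaining veh-treated mouse is assumed to vary like the mice of the other groups. Counts of genes past a threshold also depend on the number of mice, so its counts are not comparable with those from all 6 mice.

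In App NL-G-F mice, microglial transcripts were close to equal with and without rh Bri2 BRICHOS R221E, while transcripts of endothelial cells, the basement membrane and, less evenly between mice, astrocytes were lower. The study's results name a threshold of p under 0.05. Its methods also name an absolute log2 fold change over 1, which was not required here. At an unadjusted p under 0.05, 1183 of 15425 genes (7.67%) were lower and 490 (3.18%) were higher after treatment. A count of 771.2 genes would pass this threshold by chance alone if no gene differed. After Benjamini-Hochberg adjustment a single gene remained, Cald1 (edgeR's quasi-likelihood test, 0.00648% of the genes), and the next gene had an adjusted p of 0.144. All other genes below are therefore described by their values at the unadjusted threshold, and none of them passed the adjusted one.

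The sizes of the differences were unequal in both directions. The median log2 fold change of all tested genes was 0.008, that of the genes called lower was -0.919 and that of the genes called higher was 0.214. A difference of more than 2-fold was reached by 517 of the genes called lower and by 29 of those called higher. The share of lower genes differed between levels. Between 1 and 10 CPM, 13.31% of 4314 genes were lower and 1.58% higher. Under 1 CPM, 6.2% of 2016 genes were lower and 1.39% higher, and from 10 to 100 CPM 6.11% of 7082 genes were lower and 3.71% higher. At 100 CPM and over 2.53% of 2013 genes were lower and 6.51% higher. CPM is not corrected for gene length, so these bins order genes by the number of counts behind them and not by their number of transcripts. Without the veh-treated mice 1 and 2, 294 genes were lower and 308 higher, and no gene passed the adjusted threshold. Without the veh-treated mouse 2 alone, 796 genes were lower and 310 higher. Without the veh-treated mouse 3, 1425 genes were lower and 689 higher, and 162 passed after adjustment.

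**Figure D1:**
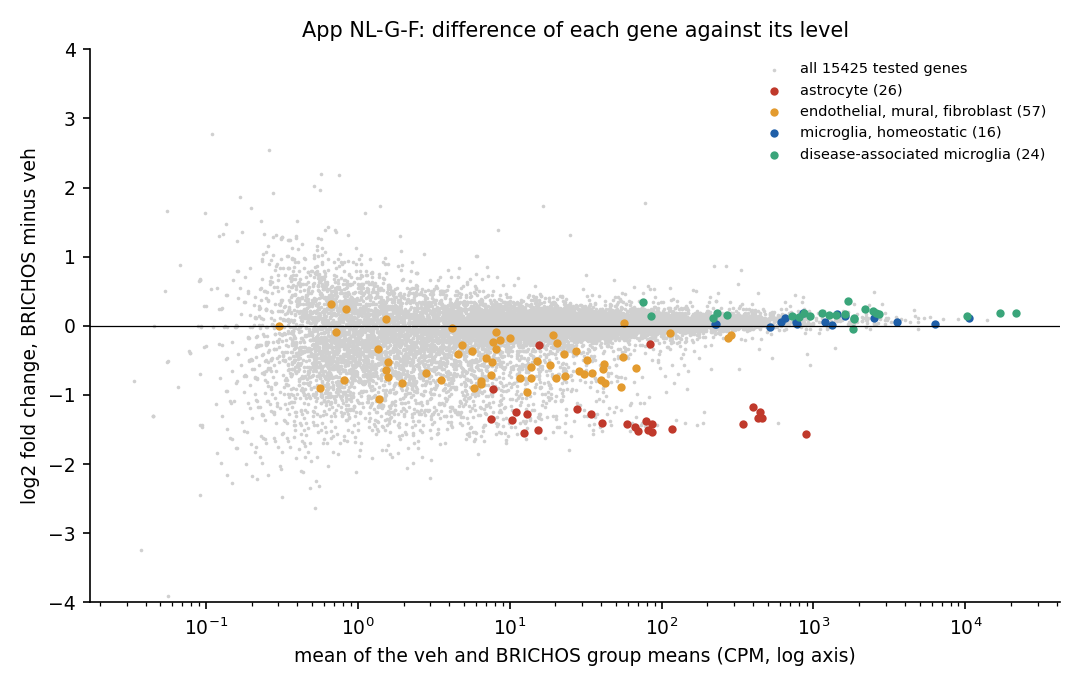
Log2 fold change in App NL-G-F mice with rh Bri2 BRICHOS R221E against veh (vertical axis) against the mean of both groups in CPM (horizontal log axis), 1 point per gene over 15425 tested genes, with marker genes of 4 kinds in colour. The 26 astrocyte markers lie below 0 with a median of -1.37. Vascular markers have a median of -0.534, with some of them above 0, while both microglial lists lie close to 0 at high levels.

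The genes called lower did not follow the treatment in every mouse. The groups did not overlap for 657 of the 1183 lower genes (55.5%) and for 368 of the 490 higher genes (75.1%), where 13.5% of all tested genes had groups that did not overlap. Among lower genes, the veh-treated mouse 3 was the lowest of its group for 869 (73.5%), against 38.1% of all tested genes. The treated mouse 2 was the lowest of its group for 848 of them (71.7%), against 39.8% of all tested genes. The same mice had the lowest summed astrocyte level of their groups, at 2476 and 1189 CPM. With a score of the astrocyte markers as a covariate, 393 genes were lower and 279 higher.

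The promoters of 4 genes that stand for the gene groups below are shown as RefSeq lists them on GRCm38.p6, from 250 bases before to 50 bases after the start. They are Cald1, which had the lowest p-value (chr6:34598254-34598553, plus strand, the first of 2 listed starts), the endothelial Slco1a4 (chr6:141856171-141856470, minus strand), the astrocytic Slc1a3 (chr15:8710758-8711057, minus strand) and the microglial Siglech (chr7:55767934-55768233, plus strand). Capitals mark a TATA box (TATAAA), a GC box (GGGCGG) or an ETS core (AGGAAG) on either strand, which 13.6%, 35.7% and 35.4% of the 32851 listed promoters hold. In Cald1 the ETS core and the GC box share a base, and Slco1a4 holds an ETS core. Slc1a3 holds a GC box and the letters of a TATA box on the opposite strand (TTTATA), and Siglech holds none of these letters. The marks are matches of letters only, and their function was not tested.
Cald1: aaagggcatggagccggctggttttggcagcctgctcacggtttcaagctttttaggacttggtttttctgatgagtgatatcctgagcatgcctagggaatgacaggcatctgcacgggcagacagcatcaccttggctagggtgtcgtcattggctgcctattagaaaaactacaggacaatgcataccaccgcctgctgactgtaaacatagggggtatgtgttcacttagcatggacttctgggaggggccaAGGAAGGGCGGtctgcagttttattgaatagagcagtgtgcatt
Slco1a4: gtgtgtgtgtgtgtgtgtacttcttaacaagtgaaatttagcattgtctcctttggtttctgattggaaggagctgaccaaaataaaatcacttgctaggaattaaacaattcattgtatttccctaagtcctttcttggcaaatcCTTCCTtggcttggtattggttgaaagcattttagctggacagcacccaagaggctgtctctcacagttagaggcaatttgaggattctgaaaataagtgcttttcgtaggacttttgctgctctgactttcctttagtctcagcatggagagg
Slc1a3: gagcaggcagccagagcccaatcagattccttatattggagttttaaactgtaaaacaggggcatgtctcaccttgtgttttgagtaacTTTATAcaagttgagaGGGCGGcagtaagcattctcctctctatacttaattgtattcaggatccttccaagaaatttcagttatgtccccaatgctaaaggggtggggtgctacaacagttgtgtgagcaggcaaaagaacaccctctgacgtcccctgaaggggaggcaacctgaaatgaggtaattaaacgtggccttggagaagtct
Siglech: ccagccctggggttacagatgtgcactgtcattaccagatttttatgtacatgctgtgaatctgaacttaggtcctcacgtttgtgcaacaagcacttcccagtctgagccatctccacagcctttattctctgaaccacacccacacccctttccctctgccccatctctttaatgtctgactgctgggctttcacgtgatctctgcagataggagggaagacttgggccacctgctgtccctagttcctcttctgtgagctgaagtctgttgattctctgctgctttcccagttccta

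Cald1 encodes caldesmon, an actin-binding protein of smooth muscle and other contractile cells, and lies on chr6:34598500-34775473 of GRCm38, where 3 genes of the opposite strand overlap it. It was at 18.3, 20.4 and 18.8 CPM in the veh-treated and at 12.9, 10.8 and 11.6 CPM in the treated mice. The groups did not overlap, and the gene fell by 0.71 on the log2 scale with the treatment (SE 0.0815, n = 3 mice per group, edgeR adjusted p = 0.0354). Its adjusted p was above 0.05 without the veh-treated mouse 1 (0.0976) or 2 (0.281), without the treated mouse 2 (0.241) or 3 (0.329), without both veh-treated mice 1 and 2 (1), with only App NL-G-F libraries in the fit (0.503), and with the astrocyte (0.581), the endothelial (0.999) or both marker scores (1) as covariates. The edgeR test with a replicate block gave an adjusted p of 0.144. DESeq2's Wald test gave 2.02e-05 with all libraries and 0.00954 with only App NL-G-F libraries. In edgeR the adjusted p was under 0.05 without the veh-treated mouse 3 (0.0176) or the treated mouse 1 (0.0409). It was also under 0.05 without a filter on low counts (0.0151), with at least 10 counts in every library (0.03) and with DESeq2's size factors (0.0292). The log2 fold change of Cald1 was -0.78 to -0.54 over these fits. The endothelial score did not overlap between the groups, so the fits with it cannot fully separate that score from the treatment.

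The 14 further genes with the lowest p-values among lower genes came from the vessel wall, the matrix, and signalling. Hspg2, which encodes the basement membrane proteoglycan perlecan, was at 15.4, 17.7 and 15.9 CPM in veh-treated and 9.68, 8.96 and 9.52 CPM in treated mice (log2 fold change -0.80, SE 0.12, edgeR adjusted p = 0.144). Vwa1, a matrix protein that binds perlecan, was at 25.7, 33.9 and 21.0 CPM against 14.1, 10.9 and 15.03 CPM. All 3 treated mice were below all 3 veh-treated mice for both genes. Sorbs2, an adaptor of the actin cytoskeleton, had a log2 fold change of -0.82 and Ahnak, a large scaffold protein, of -0.71. The homeobox factor Meis2 had -1.35 and the LIM protein Crip2 -0.99.

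Lrp8, a receptor for reelin and apolipoprotein E, was at 15.6, 18.7 and 14.97 CPM in veh-treated and at 9.36, 7.17 and 9.52 CPM in treated mice (log2 fold change -0.92, SE 0.144, adjusted p = 0.144). Cx3cl1, the ligand of the microglial receptor Cx3cr1, was at 7.90, 9.39 and 8.23 CPM against 5.29, 3.33 and 4.61 CPM. The Wnt receptor Fzd6 was at 10.5, 13.4 and 11.0 CPM against 6.65, 6.01 and 4.76 CPM. Treated mice had the lower values throughout for these 3 genes. Pltp, which moves phospholipids between lipoproteins, had a log2 fold change of -0.61. Ccdc141 had -1.10. For each of these 15 genes, which were chosen by their p-values in this comparison, all treated mice lay below all veh-treated mice.

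**Figure D2:**
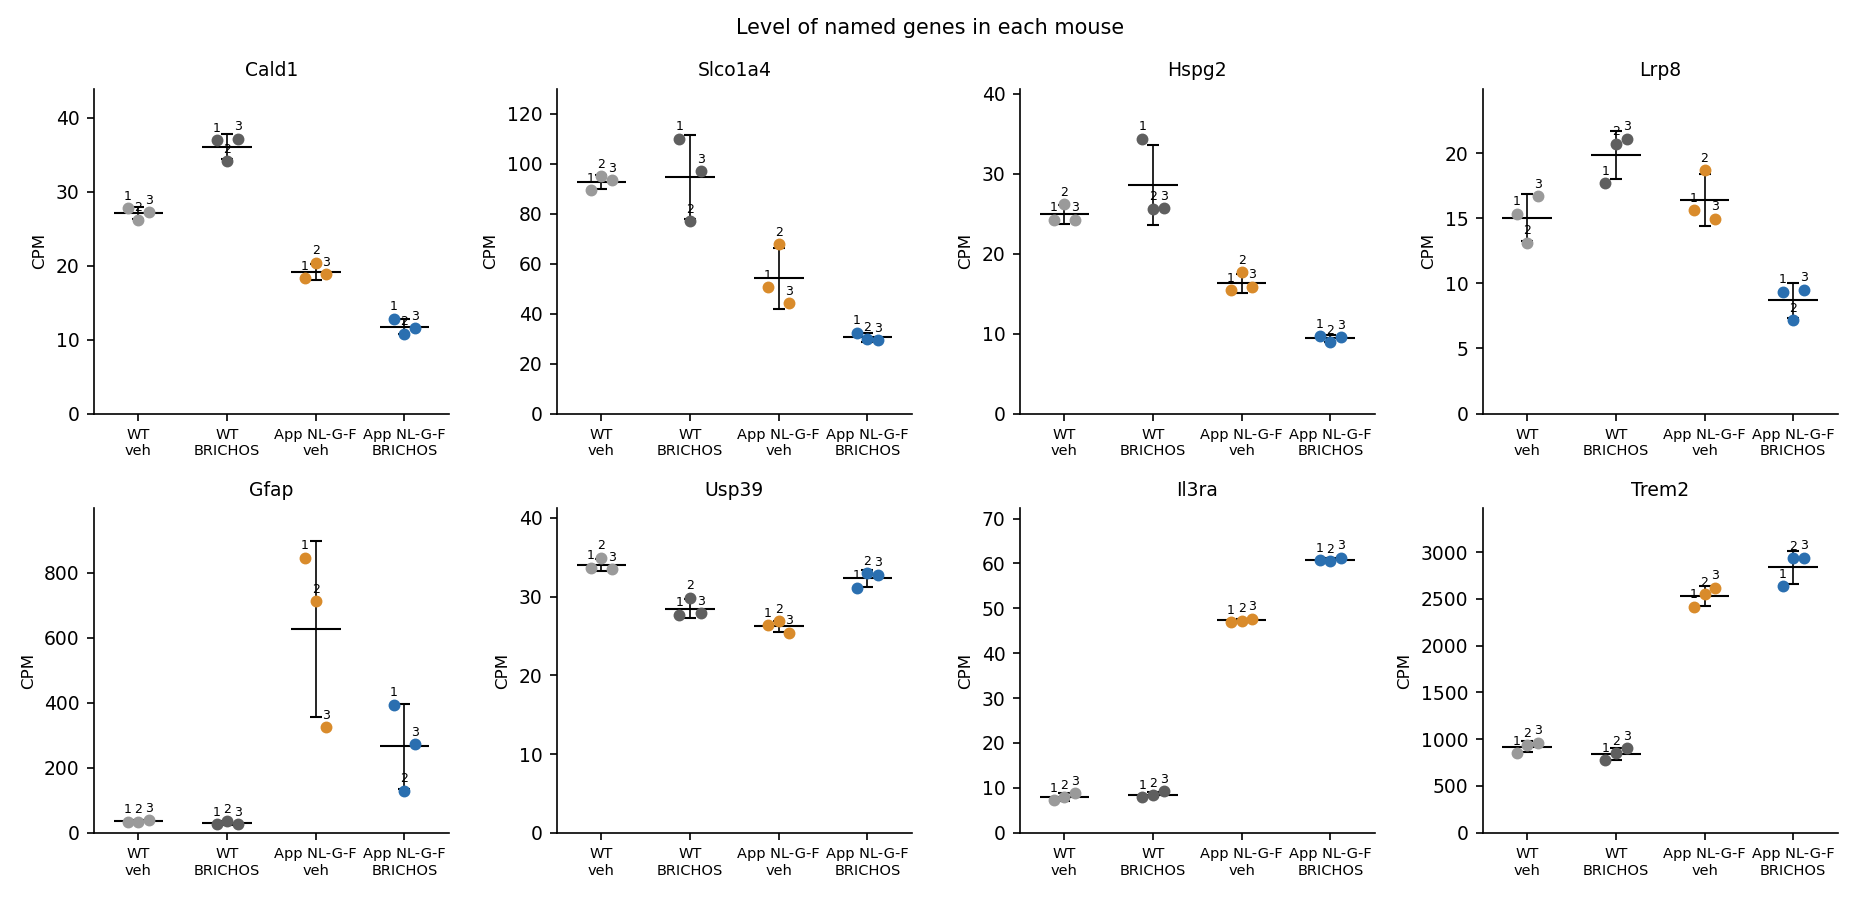
CPM of 8 named genes in each of 12 mice (points, numbered by replicate), with the mean (line) and SD (bar) of the 3 mice of a group. Cald1, Slco1a4, Hspg2 and Lrp8 were lower and Usp39 and Il3ra higher in every treated App NL-G-F mouse than in every one given veh, whereas Gfap overlapped, with the veh-treated mouse 3 at 324 CPM and the treated mouse 1 at 394 CPM.

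Among markers of endothelial cells, 20 of 24 were lower and 0 higher (7.67% of all tested genes were lower), with a median log2 fold change of -0.638. The 2 with the lowest p-values encode organic anion transporters of the blood-brain barrier. Slco1a4 was at 50.5, 67.9 and 44.2 CPM in veh-treated and 32.3, 29.8 and 29.3 CPM in treated mice (log2 fold change -0.83, SE 0.154, adjusted p = 0.212). Slco1c1, which also carries thyroid hormone, was at 74.3, 84.3 and 52.9 CPM against 40.2, 31.4 and 43.1 CPM. Both genes were lower in each treated mouse than in any veh-treated mouse.

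Abcb1a, the efflux pump P-glycoprotein, was at 45.9, 66.4 and 39.05 CPM in veh-treated and 28.3, 27.7 and 32.3 CPM in treated mice (log2 fold change -0.78). The tight junction gene Cldn5 was at 44.0, 63.6 and 41.3 CPM against 34.7, 30.5 and 31.4 CPM (log2 fold change -0.62, adjusted p = 0.299). The same 20 endothelial markers had groups that did not overlap, as 7.09% of all tested genes had in this direction. Those that did not pass the threshold were Eng, Flt1, Slc2a1 and Abcg2, named here after their values were seen, with log2 fold changes of -0.10, -0.18, -0.13 and 0.04.

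The summed endothelial level was 1309, 1682 and 1323 CPM in veh-treated and 1074, 1133 and 1162 CPM in treated mice, which was 21.9% lower in the mean. In a bulk sample, fewer cells of a type and less RNA per cell cannot be told apart. The mean log2 CPM of the markers differed by -0.561 between the groups (exact two-sided permutation test, p = 0.1, the smallest that 3 against 3 mice allow). With single mice left out, 16 to 19 of the 24 markers were lower, with medians of -0.745 to -0.418. Without the veh-treated mice 1 and 2, 4 of 24 were lower, with a median of -0.389.

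Mural cell markers were lower in 7 of 19 and higher in 0, with a median log2 fold change of -0.455. Pdgfrb, the growth factor receptor of pericytes, was at 18.1, 20.7 and 12.37 CPM in veh-treated and 10.7, 5.63 and 10.3 CPM in treated mice. Vtn, the matrix protein vitronectin, was at 37.5, 51.2 and 40.4 CPM against 31.9, 20.5 and 28.3 CPM. Groups did not overlap for either gene. Genes of the contractile apparatus of smooth muscle had log2 fold changes of -0.25 for Tpm1, which was lower, and of -0.17 for Acta2 and -0.21 for Myh11, which did not pass. Acta2 and Myh11 were chosen after their values were seen. Fibroblast markers were lower in 5 of 14, among them Fbln1 (log2 fold change -0.68) and Col1a2 (-0.78), at a median of -0.391, and their levels were low, with summed values of 42.8 to 71.9 CPM. Without the veh-treated mouse 2 or the treated mouse 2, 3 mural and 2 fibroblast markers were lower, and without the veh-treated mouse 3, the treated mouse 1 or the treated mouse 3, 3 fibroblast markers were lower. Without both veh-treated mice 1 and 2, the median log2 fold change was -0.347 for mural and -0.466 for fibroblast markers.

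Of 20 genes of the basement membrane and matrix, 10 were lower and 0 higher, with a median log2 fold change of -0.576. Besides Hspg2 they included the laminin chain Lama5 (19.0 to 11.9 CPM in the means, log2 fold change -0.67), the collagen chain Col4a1 (26.1 to 16.1 CPM, -0.70) and the proteoglycan Agrn (59.1 to 46.6 CPM, -0.34). Groups did not overlap for these 3 genes. Sparc, at 2882 CPM in veh-treated and 3062 CPM in treated mice, had a log2 fold change of 0.09 and did not pass. Without the veh-treated mice 1 and 2, the median of the list was -0.354.

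Astrocyte markers had the lowest median log2 fold change of the 35 lists, at -1.37, and 23 of 26 were lower and 0 higher. Slc1a3, a glutamate transporter, was at 727, 662 and 270.0 CPM in veh-treated and 320.2, 171 and 247 CPM in treated mice (log2 fold change -1.17, SE 0.324, adjusted p = 0.294). Gfap, the intermediate filament of reactive astrocytes, was at 847, 712 and 324 CPM against 394, 130.1 and 273 CPM (-1.24, adjusted p = 0.294). Aqp4, the water channel of astrocyte endfeet, was at 141, 144 and 55.5 CPM against 66.2, 18.3 and 46.5 CPM (-1.38, adjusted p = 0.319). In all 3 genes the veh-treated mouse 3 was below the treated mouse 1.

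Other members showed the same order. Clu, a secreted chaperone also known as apolipoprotein J, was at 814, 719 and 314 CPM in veh-treated and 346, 124 and 261 CPM in treated mice. Fam107a, an actin-associated stress protein, had a log2 fold change of -1.49. Groups did not overlap for only 2 of the 26 markers, Slc7a10 and S100b, and the 3 markers that did not pass were Cbs, Ppp1r3c and S100b, all named after their values were seen.

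The summed astrocyte level was 7585, 6739 and 2476 CPM in veh-treated and 3204, 1189 and 2174 CPM in treated mice. The veh-treated mouse 3 was thus within the range of the treated mice, and the difference of the marker score was -1.24 (exact two-sided permutation test, p = 0.2). Without the veh-treated mice 1 and 2, 0 of 26 markers were lower and their median log2 fold change was -0.117. Single mice mattered too, with 9 lower markers without the veh-treated mouse 1 and 12 without the treated mouse 2, against 16 to 25 without each other mouse. The medians were then -1.753 to -1.089.

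**Figure D3:**
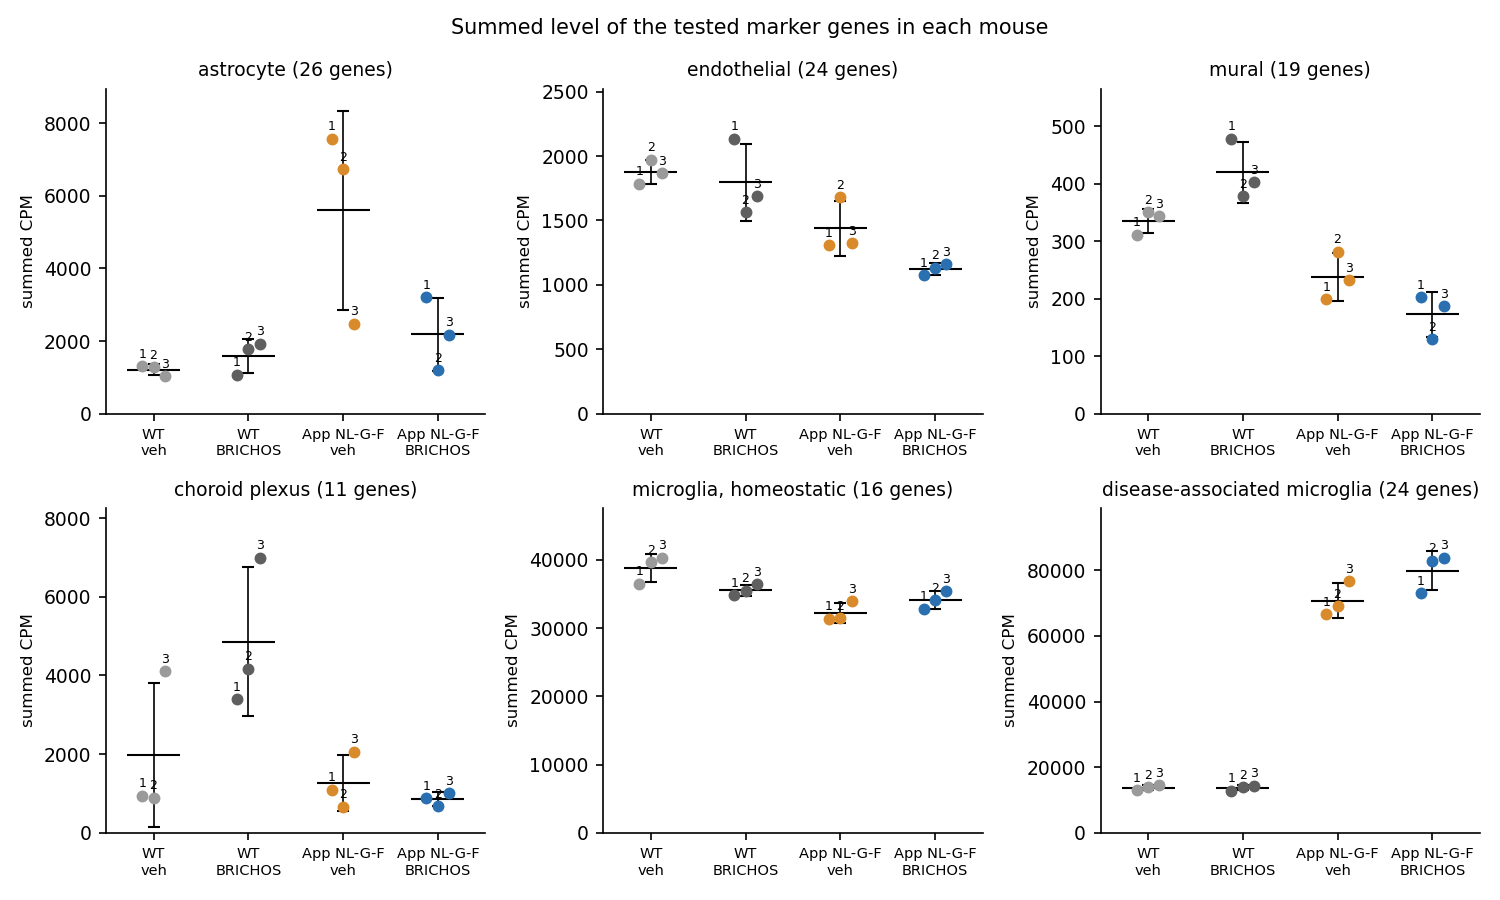
Summed CPM of the tested markers of 6 lists in each of 12 mice (points, numbered by replicate), with the mean (line) and SD (bar) of each group of 3. Endothelial sums of treated App NL-G-F mice lie at 1074 to 1162 CPM, below the 1309 to 1682 CPM of veh-treated ones, whereas astrocyte sums overlap and the homeostatic microglial sums lie at 31370 to 35380 CPM in both groups.

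Other neural cell types had few genes past the threshold. Oligodendrocyte markers had 0 of 15 lower and 0 higher, with a median of 0.073 and Mbp, a myelin protein, at 1336, 1934 and 2987 CPM in veh-treated and 2760, 3536 and 2463 CPM in treated mice. The direction of this median turned on single mice, at -0.582 without the treated mouse 1, -0.032 without the veh-treated mouse 2 and 0.427 without the treated mouse 2. Choroid plexus markers were all below 0, with a median of -0.699, but 0 of 11 passed the threshold. Their summed level was 1099, 664 and 2058 CPM against 872, 668 and 1012 CPM, and the groups overlapped. Without the veh-treated mouse 3 the median was -0.106. Of 12 precursor markers 2 were lower, Vcan (log2 fold change -1.13) and Neu4 (-1.79), of 16 neuronal markers Thy1 (-1.05) and Rbfox3 (-0.98), and of 12 ependymal markers Rarres2 (-1.21) and Tekt1 (-1.25). No member of these lists was higher, but 2, 5 and 5 of them had a log2 fold change above 0, and the 6 lower genes were at 6.93 CPM or less in all 6 libraries. Of neuronal markers, 2 were lower without the veh-treated mouse 3, 1 without the treated mouse 1, and 0 without each other mouse. Precursor markers had 0 or 1 lower without each single mouse, and 1 ependymal marker was lower without the veh-treated mouse 1 or 3 or the treated mouse 1 or 2.

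Genes of microglial identity were close to equal between the groups. Of 16 homeostatic markers 0 were lower and 2 higher (3.18% of all tested genes were higher), with a median log2 fold change of 0.05 and a range of -0.01 to 0.19. P2ry12, the purinergic receptor of resting microglia, was at 1336, 1339 and 1279 CPM in veh-treated and 1347, 1335 and 1290 CPM in treated mice (log2 fold change 0.01, SE 0.0587). Tmem119 was at 683, 680.4 and 884 CPM against 683, 777 and 882 CPM. Neither gene separated the groups. The lectin Siglech was higher, at 805, 754 and 818 CPM against 868, 1001 and 839 CPM (log2 fold change 0.19, adjusted p = 0.373). So was Golm1, a Golgi membrane protein, at 628, 612 and 645 CPM against 675, 684 and 674 CPM (0.11, adjusted p = 0.423). Groups did not overlap for these, as for 6.37% of all tested genes in this direction. Leaving out single mice gave 0 (without the veh-treated mouse 2 or the treated mouse 2) to 5 higher markers (without the veh-treated mouse 3), and 1 without each other mouse.

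No disease-associated gene was lower at the unadjusted threshold. Of 24 members 0 were lower and 2 higher, whereas DESeq2 on all libraries gave 9 higher and edgeR without a filter on low counts 7. Groups did not overlap for 8 members, all in the higher direction (6.37% of all tested genes). The median log2 fold change was 0.163, and 23 were above 0, as were 52.0% of all tested genes. Tyrobp, the signalling adaptor of Trem2, was at 2106, 2313 and 2471 CPM in veh-treated and 2369, 2845 and 2733 CPM in treated mice (log2 fold change 0.21, adjusted p = 0.447). Timp2, an inhibitor of matrix proteases, was at 1242, 1306 and 1408 CPM against 1386, 1515 and 1517 CPM (0.16, adjusted p = 0.426). The groups overlapped in both genes.

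Trem2 itself was at 2417, 2552 and 2619 CPM in veh-treated and 2636, 2934 and 2939 CPM in treated mice, without overlap, and did not pass the threshold (log2 fold change 0.17, SE 0.0757, adjusted p = 0.463). Apoe had group means of 20020 ± 1250 and 22870 ± 1190 CPM (SD, n = 3), a log2 fold change of 0.19 and an adjusted p of 0.517. Spp1 varied more between mice than between groups, at 1340, 1485 and 3155 CPM against 1564, 2288 and 3244 CPM. The summed level of the list was 66570, 69050 and 76630 CPM in veh-treated and 72960, 82960 and 83840 CPM in treated mice, and the treated mouse 1 lay within the range of the veh-treated mice. Without the veh-treated mouse 3, 7 members were higher, and without the treated mouse 1, 6, whereas 0 were higher without the veh-treated mouse 1 or 2 or the treated mouse 2, and 1 without the treated mouse 3. With both the astrocyte and the endothelial score in the model the median of the list was -0.009. The endothelial score did not overlap between the groups, so this fit cannot fully separate that score from the treatment.

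**Figure D4:**
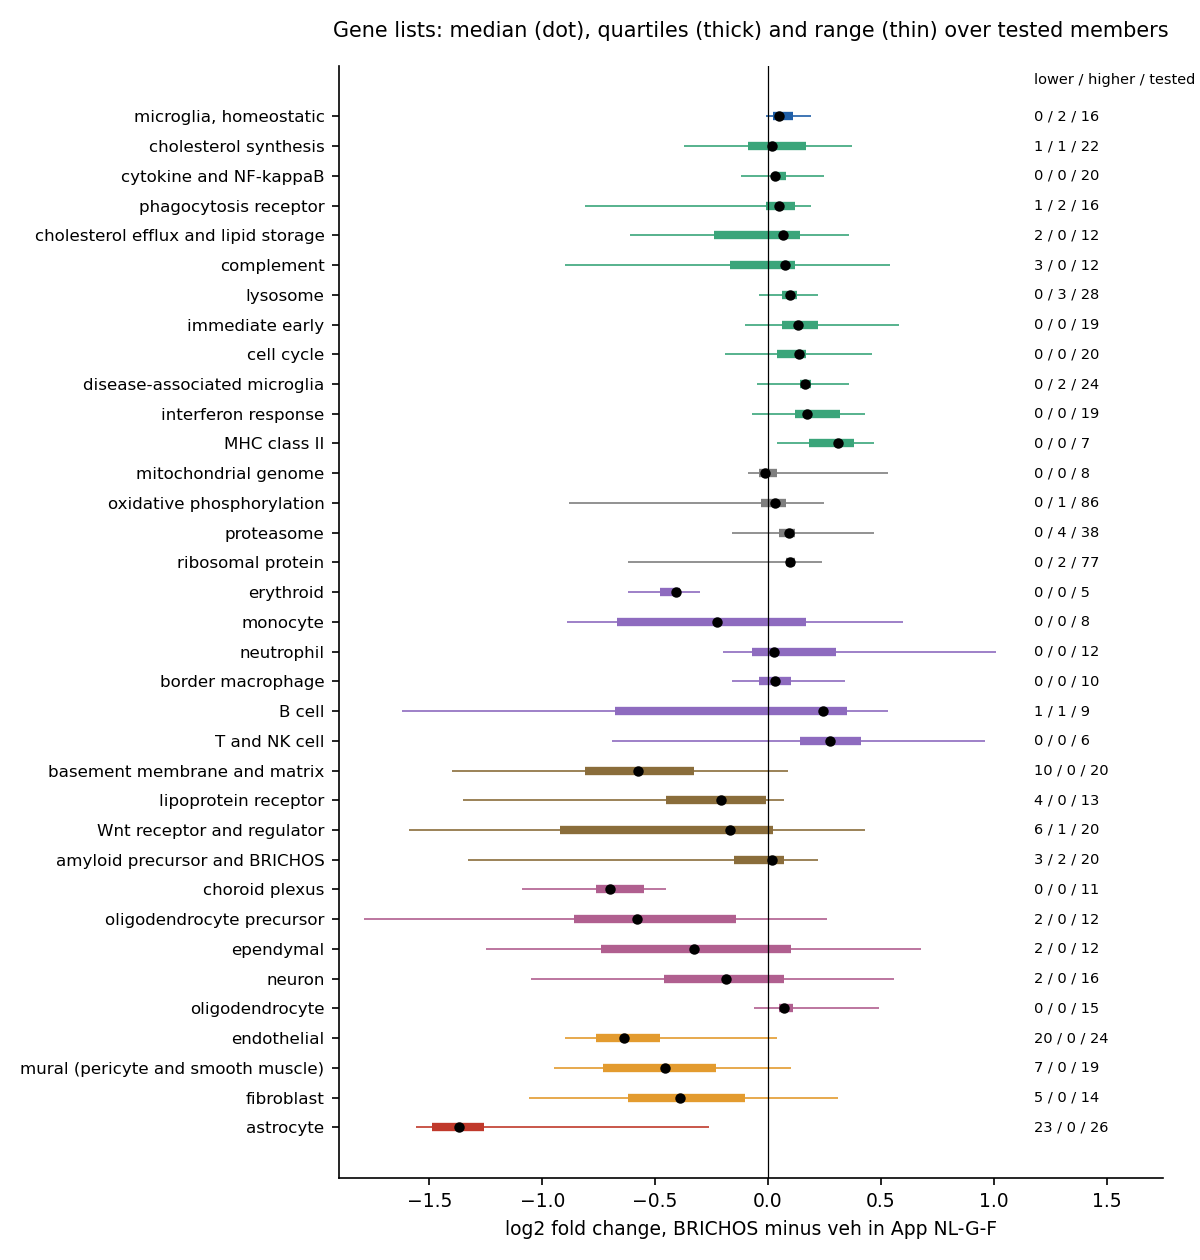
Log2 fold change in App NL-G-F mice with rh Bri2 BRICHOS R221E against veh for 35 gene lists, with the median (dot), quartiles (thick line) and range (thin line) over tested members and, at the right, the numbers lower, higher and tested. Medians of the astrocyte and vascular lists and of the basement membrane list lie to the left of 0. Of these lists, only the astrocyte one has its whole range below 0. The medians of the homeostatic and disease-associated microglial lists lie at 0.05 and 0.163.

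Further microglial programs held few genes past the threshold. Lysosomal genes were higher in 3 of 28 and lower in 0, with a median log2 fold change of 0.099, and DESeq2 on all libraries gave 8 higher. These were the glycosidases Hexa (2096 to 2366 CPM in the means, difference 0.17 on the log2 scale) and Glb1 (285 to 332 CPM, 0.22) and the cathepsin Ctsz (2793 to 3158 CPM, 0.18), with adjusted p-values of 0.368, 0.372 and 0.426. Of these, only Hexa had groups that did not overlap. The count was 8 without the treated mouse 1, 5 without the veh-treated mouse 3, 1 without the treated mouse 3, and 0 without the other 3 mice in turn. Interferon-response genes had a median of 0.173, cytokine and NF-kappaB genes of 0.03, immediate early genes of 0.134 and cell cycle genes of 0.136, and no member of these 4 lists passed in either direction. The lowest p-value in each came from Irf7 (log2 fold change 0.41), Cxcl2 (0.25), Btg2 (0.20) and Mcm5 (0.23). The interferon-response median was 0.332 with 5 of 19 genes higher without the veh-treated mouse 1, and without the treated mouse 3 it was 0.296 with 2 higher. The other 4 mice gave interferon-response medians of 0.116 to 0.154. Leaving out single mice gave medians of -0.055 (without the treated mouse 2, with 2 genes lower) to 0.141 (without the veh-treated mouse 2) for cytokine and NF-kappaB genes. For immediate early genes it gave 0.014 (without the treated mouse 2) to 0.272 (without the veh-treated mouse 3), and for cell cycle genes 0.07 (without the treated mouse 3) to 0.162 (without the veh-treated mouse 3). MHC class II genes had a median of 0.31 and summed levels of 5028, 3433 and 5018 CPM against 4770, 7740 and 4522 CPM. The treated mouse 2 alone was above the veh-treated mice, and without it the median was 0.08.

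Of 12 complement genes, 3 were lower and 0 higher. The early components C1qa, C1qb and C1qc, which microglia make, had log2 fold changes of 0.13, 0.14 and 0.11 and did not pass, and were chosen after their values were seen. Lower were Cfp, which encodes properdin (log2 fold change -0.55), Serping1, the C1 inhibitor (-0.90), and C4b (-0.56). C4b was at 207, 168 and 125 CPM in veh-treated and 160.4, 71.1 and 108 CPM in treated mice, and the groups overlapped, as they did for the other 2. No complement gene was lower without the veh-treated mouse 1, 1 without the veh-treated or the treated mouse 2, and 2 without each other mouse. With veh-treated mice 1 and 2 left out, Serping1 had a log2 fold change of 0.11.

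Genes of lipid handling included lower and higher ones. Abca1, the exporter of cholesterol to apolipoproteins, was at 398, 402 and 448 CPM in veh-treated and 362, 363 and 381 CPM in treated mice (log2 fold change -0.17, adjusted p = 0.369). Abca1 and Pltp were the 2 lower genes among 12 of efflux and lipid storage, and 0 were higher. Among 22 genes of cholesterol synthesis, Nsdhl was higher (log2 fold change 0.22). Among 16 receptors and bridges of phagocytosis, Fcer1g (0.19) and Fcgr1 (0.10), both of the Fc receptors, were higher, and Mfge8 (-0.47), which links dying cells to integrins, was lower. Lipoprotein receptors were lower in 4 of 13. These were Lrp8, Lrp4 (-0.57), Lsr (-0.44) and Sorcs2 (-1.35), whereas Lrp1, at 1828 CPM in veh-treated and 1819 CPM in treated mice, had a log2 fold change of -0.01 and was chosen after its values were seen. Without the veh-treated mouse 2, 2 lipoprotein receptors were lower. Their median log2 fold change was -0.206 with all mice and -0.12 without the veh-treated mice 1 and 2.

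Of 20 Wnt receptors and regulators, 6 were lower and 1, Fzd8, was higher, at a median log2 fold change of -0.17. After Fzd6 the lowest p-values were those of Axin2, a feedback inhibitor induced by Wnt signalling, at 8.68, 11.2 and 6.22 CPM in veh-treated and 4.58, 4.42 and 4.31 CPM in treated mice (log2 fold change -0.97, SE 0.2, adjusted p = 0.212), and of the transcription factor Lef1 (-0.69). The groups did not overlap for either gene. Dkk3, a secreted protein of the Dickkopf family, was at 63.6, 52.0 and 16.7 CPM against 28.3, 8.83 and 16.7 CPM (-1.30). Its order of mice was that of the astrocyte markers. Without the veh-treated mice 1 and 2 its log2 fold change was 0.10 and the median of the list was -0.215. Without the treated mouse 2, 3 genes of the list were lower.

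Genes of the amyloid precursor and of BRICHOS proteins were lower in 3 and higher in 2 of 20. App was at 549, 546 and 615 CPM in veh-treated and 653, 495 and 578 CPM in treated mice (log2 fold change 0.01, adjusted p = 0.988). Itm2b, whose human counterpart encodes the protein from which the drug is derived, was at 3462, 3368 and 3414 CPM against 3650, 3698 and 3648 CPM, without overlap, and did not pass (0.10, SE 0.0599, adjusted p = 0.602). The gamma-secretase subunit Psen2 was higher (0.22), while the subunit Aph1b (-0.54) and the protease Bace2 (-1.33, 0.633 to 0.247 CPM) were lower. The list held 1 to 2 higher and 2 to 3 lower genes without any single mouse. Itm2a, a relative of Itm2b that is also among the endothelial markers, was at 33.5, 49.5 and 31.4 CPM against 22.3, 23.2 and 24.8 CPM (-0.70, adjusted p = 0.291).

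The 10 higher genes with the lowest p-values differed by little but evenly between mice. Il3ra, the alpha chain of the interleukin-3 receptor, was at 46.9, 47.3 and 47.7 CPM in veh-treated and 60.7, 60.5 and 61.3 CPM in treated mice (log2 fold change 0.36, SE 0.0724, adjusted p = 0.212). Usp39, a splicing factor, was at 26.4, 26.8 and 25.4 CPM against 31.1, 33.0 and 32.8 CPM (0.30, SE 0.0584, adjusted p = 0.212). Lgals9, which encodes galectin-9, was at 190, 184 and 185 CPM against 226, 220.7 and 206 CPM (0.22, adjusted p = 0.278). All treated mice were above all veh-treated mice for these genes.

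The remaining 7 were the tetraspanin Tspan18 (log2 fold change 0.37), the MyoD family inhibitor Mdfi (0.46), the ribosome-associated chaperone Dnajc2 (0.31), Pgrmc2 (0.19), the trafficking factor Trappc6b (0.26), and Rrp12 (0.37) and Ftsj3 (0.24), both factors of ribosome assembly. Their groups did not overlap either, which the choice by p-value favours. Tspan18 and Il3ra are examples of opposite order between genotypes. With veh, Tspan18 was at 49.4 CPM in WT and at 10.4 CPM in App NL-G-F mice, and Il3ra at 8.001 CPM and 47.3 CPM. Both were higher after treatment in App NL-G-F mice, by 0.37 and 0.36 on the log2 scale.

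**Figure D5:**
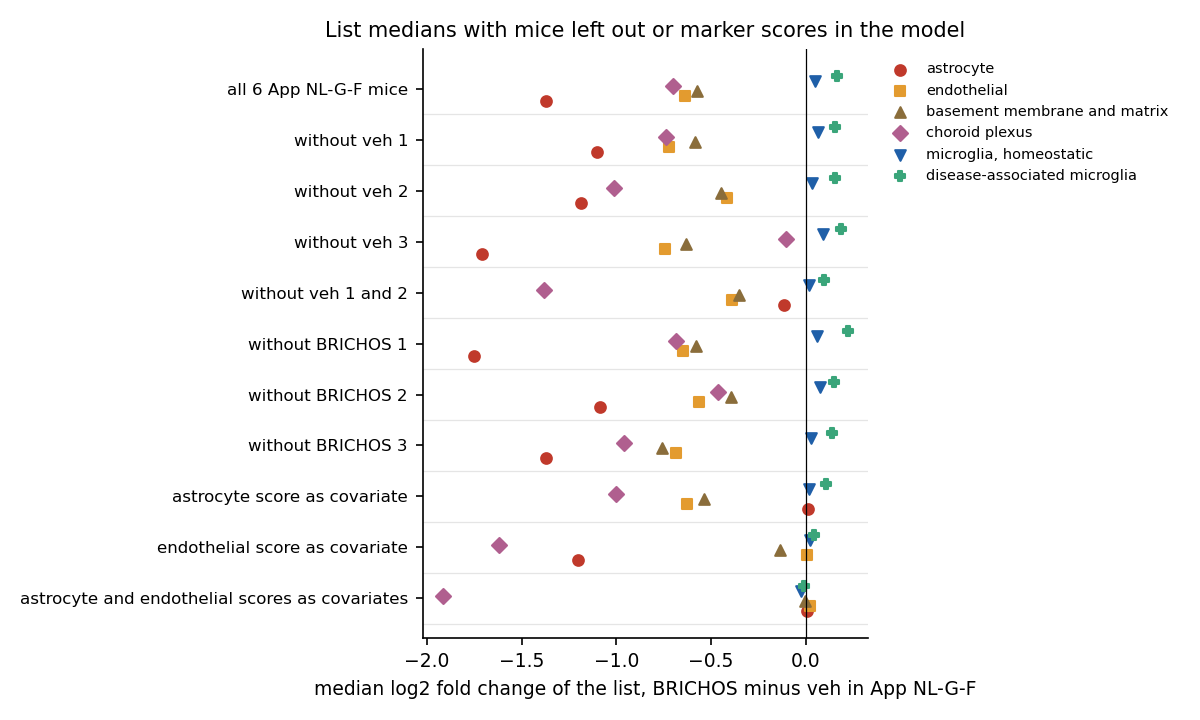
Median log2 fold change of 6 gene lists (horizontal axis) with all 6 App NL-G-F mice, with mice left out, or with marker scores as covariates (rows). The astrocyte median moves from -1.37 to -0.117 without veh-treated mice 1 and 2, the endothelial median from -0.638 to -0.389, and the choroid plexus median to -0.106 without veh-treated mouse 3, while both microglial medians stay between -0.03 and 0.22.

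Because the WT mice received the same injections, the treatment effect could be compared between genotypes. The difference of the effects, App NL-G-F minus WT, had an unadjusted p under 0.05 for 2279 genes (14.8%), of which 1472 (9.54%) were negative and 807 (5.23%) positive. Cald1 was at 27.8, 26.2 and 27.3 CPM in veh-treated and 37.0, 34.1 and 37.2 CPM in treated WT mice, and so had a log2 fold change of 0.41 where App NL-G-F mice had -0.71. The difference of the effects was -1.12 (SE 0.112, edgeR adjusted p = 0.00834), and no other gene passed after adjustment. Next by p-value were Usp39 (0.56), Lrp8 (-1.32), Itsn1, an endocytic scaffold (-0.71), and Ahnak (-1.02), each with an adjusted p of 0.134.

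The lists differed in how the genotypes compared. The median log2 fold change of astrocyte markers was -1.37 in App NL-G-F and 0.60 in WT mice. At the unadjusted threshold 23 of 26 had a negative difference of the effects. Leaving out mice 1 and 2 of the App NL-G-F veh group moved the -1.37 to -0.117. Of the 26 markers, 2 were higher and 1 was lower in treated WT mice. Summed levels overlapped in WT, where the treated mouse 1 had 1067 CPM and the veh group 1033 to 1300 CPM. Endothelial markers had a median of -0.09 in WT mice with 0 of 24 lower or higher, and 11 of 24 had a negative difference. For fibroblast markers the median was -0.391 in App NL-G-F and 0.882 in WT mice, with 9 of 14 higher in WT and 8 of 14 with a negative difference. At the same threshold 6.55% of all tested genes were higher and 4.83% lower in treated WT mice. Ependymal markers were higher in 11 of 12 in treated WT mice, at a median of 1.234, against -0.33 in App NL-G-F mice. Of homeostatic microglial markers, 3 of 16 were lower in treated WT mice and 6 had a positive difference. The App NL-G-F libraries that enter these differences also gave the effects themselves, so the counts are not independent of those above.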

How the data were processed

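RNA was sequenced from CD11b-bead isolates of the cortex of 12 male mice, 3 in each of 4 groups of genotype and treatment. The deposited values were raw counts per gene, which the authors made with Cutadapt, STAR and featureCounts on GRCm38, without normalization. The submitters' processing notes name FastQC 0.11.8, STAR 2.6.1d and featureCounts 1.5.1. Whether the counting used strand is not given in the sources used here, so reads of overlapping genes on opposite strands cannot be told apart.

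Of 55487 listed genes, 26314 had no count, and 15425 passed edgeR's filter (minimum count 10) and were tested. The edgeR 4.0.16 quasi-likelihood test with TMM scaling (limma 3.58.1, R 4.3.3) was fitted to all 12 libraries, with a mean per group, since all groups then share the estimate of the spread. It was tested on simulated data in which genes varied independently of each other. That simulation does not cover differences that many genes of a mouse share. P-values were adjusted by Benjamini-Hochberg over all tested genes. An unadjusted p under 0.05 served as in the study's results, without the fold change cutoff that its methods also name. Groups were taken from the labels, which name each mouse once. Replicates differed by more than sampling noise. Marker scores were the mean log2 CPM (prior count 2) of a list and were compared by exact permutation (SciPy 1.17.1). Gene symbols (55141 IDs) came from GENCODE annotation of the same build.

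The gene groups were 35 lists of cell type markers and programs. Named are the 15 lower and 10 higher genes with the lowest p-values, up to 4 members past the threshold for each list by p (2 where there was none), the 5 lowest p-values for the difference between genotypes, and 14 genes always given (App, Itm2b, Itgam, Aif1, P2ry12, Tmem119, Trem2, Apoe, Spp1, Gfap, Clu, Aqp4, Cldn5 and Cald1). Others are marked as chosen after their values were seen. The comparison and the lists were chosen with earlier results of these data known. Alternatives were other size factors, filters and libraries in the fit, DESeq2 1.42.0, a replicate block, marker scores as covariates, and left-out mice. Endothelial scores as a covariate and the fit without both veh-treated mice 1 and 2 were chosen after seeing the data. The floor of 3 counts covers counting error only. Some genes that the rule names are not reported here.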

Additional observations from a re-analysis of the deposited data

Results flagged for a closer look

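Cald1 differed between genotypes in its treatment effect, by a test of the difference itself. The difference of the log2 fold changes, App NL-G-F minus WT, was -1.12 (SE 0.112, edgeR adjusted p = 0.00834). In App NL-G-F mice the gene was at 18.3, 20.4 and 18.8 CPM with veh and at 12.9, 10.8 and 11.6 CPM with rh Bri2 BRICHOS R221E. In WT mice it was at 27.8, 26.2 and 27.3 CPM with veh and at 37.0, 34.1 and 37.2 CPM with rh Bri2 BRICHOS R221E. The treatment groups did not overlap in either genotype, and their order was opposite. The cause was not tested. With 3 mice per group, no test for a single mouse far from the others was made.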

How the results depend on the processing

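The count of 1673 genes at the unadjusted threshold became 672 with the astrocyte score as a covariate, 537 with the endothelial score, 431 with both, 602 without veh-treated mice 1 and 2, 1035 with DESeq2 on App NL-G-F libraries alone, and 546 with an absolute log2 fold change over 1. The scores contain the marker genes themselves. The endothelial score was 5.072, 5.481 and 4.969 in veh-treated and 4.618, 4.52 and 4.702 in treated App NL-G-F mice, without overlap. Fits with it therefore cannot fully separate that score from the treatment. Leaving out single mice gave 1106 (without veh-treated mouse 2) to 2114 genes (without veh-treated mouse 3). DESeq2's size factors moved the split to 1125 lower and 646 higher. After adjustment the count of 1 became 0 with App NL-G-F libraries alone, with each and with both scores, without veh-treated mice 1 and 2, and over 1 log2 unit. It was 0 without any 1 of veh-treated mice 1 and 2 and treated mice 2 and 3. It became 25 without a filter on low counts, 116 with DESeq2 on all libraries and 73 with DESeq2 on App NL-G-F libraries, and leaving out single mice gave 0 to 162, with 162 without veh-treated mouse 3.

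Replicate numbers are shared between groups. Same-numbered mice deviated from their group means with correlations of 0.178, 0.01 and 0.052, and differently numbered ones with correlations of -0.181 to 0.125. Whether same-numbered mice share more than a number cannot be told from so few pairs. With a replicate block, 1926 genes passed unadjusted and 0 adjusted, where 1 had passed, and of 86 named genes past the threshold 82 stayed past it. Cald1 had an adjusted p of 0.144 with the block, within 2.02e-05 to 1 over its alternatives. The block gave 11 of 24 disease-associated, 9 of 28 lysosomal and 5 of 16 homeostatic genes as higher, against 2, 3 and 2.

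For the difference between genotypes, 2279 genes became 926 with the astrocyte score, 915 with both scores, 1172 without veh-treated mice 1 and 2 and 1039 over 1 log2 unit, and 1827 to 2688 without single mice. The 1 gene after adjustment became 107 without a filter, 0 with each and with both scores and without veh-treated mice 1 and 2, and 239 with DESeq2 on all libraries. Leaving out single mice gave 0 (without treated mouse 3) to 88 (without veh-treated mouse 3).

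Some named genes changed sign. With the astrocyte score these included Mfge8 (0.05), Dkk3 (0.07) and Sorcs2 (0.19), and with the endothelial score Abcc9 (0.23), Ebf1 (0.10), Col4a1 (0.07), Agrn (0.01), Lsr (0.02) and Cldn5 (0.13). With both scores 14 named genes did so, among them Siglech (-0.03), Fam107a (0.03), Pdgfrb (0.01), Abcc9 (0.36), Serping1 (0.21), Mfge8 (0.18), Fcer1g (-0.01), Col4a1 (0.11), Agrn (0.01), Dkk3 (0.31), Lrp4 (0.07), Sorcs2 (0.03) and Cldn5 (0.12). Without veh-treated mice 1 and 2 these included Serping1 (0.11), Mfge8 (0.09) and Dkk3 (0.10). Of the 86 named genes past the threshold, 43, 25 and 13 stayed past it with the astrocyte score, the endothelial score and both. Precursor markers differed by 0.043 as a log2 ratio of summed CPM, against -0.554 as a mean of log2 CPM. The causes were not tested.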

Other observations

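Blood and border cell markers had few genes past the unadjusted threshold in App NL-G-F mice. Border macrophage markers had 0 of 10 genes lower or higher, with a median log2 fold change of 0.029 and summed levels of 604, 539 and 726 CPM with veh and 663, 557 and 668 CPM with rh Bri2 BRICHOS R221E. Neutrophil markers (median 0.027, 12 genes), monocyte markers (-0.226, 8 genes) and erythroid markers (-0.407, 5 genes) also had no gene past the unadjusted threshold. Of 14 T and NK cell markers, 6 were tested, and their summed level was 4.6 to 9.8 CPM. Among 9 B cell markers Ebf1 was lower (log2 fold change -0.72) and Ighd higher (0.35).

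Genes of protein turnover and synthesis showed small differences. Of 38 proteasome genes 4 were higher and 0 lower, with a median of 0.094, where 3.18% of all tested genes were higher. DESeq2 on App NL-G-F libraries alone gave 0 higher proteasome genes. Without the veh-treated mouse 3 or the treated mouse 2, 1 proteasome gene was lower. Psmd3, a subunit of the regulatory particle, was at 86.1, 85.8 and 84.5 CPM with veh and 90.7, 95.0 and 98.2 CPM with rh Bri2 BRICHOS R221E. Of 77 ribosomal protein genes 2 were higher, among them Rps2 (log2 fold change 0.24), and the median was 0.097. Of 86 genes of oxidative phosphorylation 1 was higher, and the median was 0.033. In the edgeR fit of all 12 libraries, 0 genes of each of these lists were lower. All tested genes had a median of 0.008, and 3.18% of them were higher and 7.67% lower.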
